A study of Mus musculus with 6 samples.

Results

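The 52 genes described here encode the machinery that copies the genome and the enzymes that supply its nucleotides. They were listed by function (origin licensing, the replisome, dNTP synthesis), and each symbol matched 1 row of a deposited table of 26898 genes. The list was made with earlier results of these data known, so the shares of members called below are a description. Of the 52 members, 51 passed a filter on low expression and were tested, and Fen1 was not.

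Before S phase, the origin recognition complex (ORC), CDC6 and CDT1 load the ring-shaped MCM2-7 helicase onto replication origins, a step called licensing. At the G1/S transition, cyclin E with its kinase partner and the E2F transcription factors switch on S-phase genes, and CDC45 and the GINS complex join MCM2-7 to form the active helicase. Primase and the DNA polymerases alpha, delta and epsilon then copy both strands, helped by the PCNA clamp, which replication factor C (RFC) loads onto DNA. Ribonucleotide reductase, thymidine kinase and thymidylate synthase provide the deoxynucleotides. Embryonic fibroblasts proliferate in early passage, so a culture holds cells in all phases of the cycle.

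The cells were mouse embryonic fibroblasts (MEFs), primary connective tissue cells of strain C57BL/6, sequenced at passage 3 after culture with 10% FBS per the labels, although the study's general methods give more serum. WT cells were Kansl1fl/fl, with both Kansl1 alleles flanked by recombination sites, and KO cells were Kansl1fl/fl/CAG-cre, with the same alleles and a tamoxifen-inducible Cre recombinase under the broadly active CAG promoter. Both groups received 1 μM tamoxifen for 48 h. Each group had 3 samples (WT 4, 5 and 8, and KO 3, 7 and 10) from mid-gestation embryos, with 3 mice per group per the methods. The labels do not say that each sample is a separate embryo, and p-values measure the spread between these samples. Cre-positive cells with an intact Kansl1 gene were not analysed here, so loss of Kansl1 and presence of active Cre cannot be told apart. The samples are bulk cultures, in which fewer cells in S phase and less RNA of these genes per cell cannot be told apart either.

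Levels are given as TPM, a length-corrected share of all transcripts in a sample that can be compared between genes, always in the order WT 4, 5 and 8 and KO 3, 7 and 10. Fold changes are KO over WT on the log2(TPM + 1) scale, fitted with limma across all tested genes with Benjamini-Hochberg adjusted p-values. Counts at an unadjusted p under 0.05 describe a list only. The share of all genes at that threshold was not computed, so these counts are not set against other genes. Gene positions are those of GENCODE M21 on mm10. Kansl1 (ENSMUSG00000018412.16, chr11:104333229-104468861, minus strand), whose protein is the scaffold of the NSL chromatin complex, measured 28.5, 26.7 and 24.4 TPM in the WT samples and 13.7, 15.8 and 14.4 TPM in the KO samples, with a log2 fold change of -0.82 ± 0.11 (SE, limma adjusted p = 0.000859). The KO samples kept 55.1% of the mean WT level of Kansl1 transcripts, counted over all exons and not only over the deleted part. Between 17655495 and 27718259 reads per sample were assigned to genes. The most abundant RNA, Gm23935, took 15.5% to 25.6% of the TPM total of a sample and was highest in WT 8 and KO 3. The fibroblast markers summed to between 10281 and 14863 TPM per sample, 11 of 12 were tested, and 0 were called by limma, with 1 higher and 0 lower at an unadjusted p under 0.05 and 0 called by voom. Of 16 macrophage markers 13 were tested and 2 rose (Lyz2 and C1qc). In 11 of the 13 the level was higher at an unadjusted p under 0.05, with every KO sample above every WT sample in 11, and the median log2 fold change was 0.86. These counts include Adgre1 and Mrc1, which reached the filter in KO only (WT means of 0.753 and 0.486 TPM). The summed level of the list lay between 50.8 and 60.6 TPM in WT and between 104 and 206 TPM in KO. None of the macrophage markers was at 0 in every sample, and Ptprc, Itgam and Cx3cr1 stayed under 1 TPM throughout. Their part in the differences below was not tested. Of the endothelial markers 3 of 7 and of the epithelial markers 4 of 8 were tested, with 0 called by limma, 1 and 2 higher at an unadjusted p under 0.05, and 1 (Kdr) called by voom. KO 7 had Xist at 117 TPM and no Ddx3y reads, and the other 5 samples had Xist at 0.023 TPM or less and Ddx3y at 49.6 TPM or more, so sex was not balanced between the groups.

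Many replication genes were expressed at a lower level in KO cells, and the size of the difference varied from gene to gene. Of 51 tested members, 18 fell at an adjusted p under 0.005 and a log2 fold change below -0.5, which is 35.3% against 9.03% of all 14799 tested genes. None rose, against 1.64% of all genes. No member was higher at an unadjusted p under 0.05 by limma either, and by voom on recovered reads 0 members rose and 1, Orc4, was higher at an unadjusted p under 0.05. The median log2 fold change of the members was -0.58, beside -0.069 for all genes, and 49 of 51 members had a negative value. The helicase activators, primase, the clamp loader and the licensing factor Cdc6 contained the largest falls. No subunit of the MCM2-7 ring, no ORC subunit and neither Pcna nor Cdt1 passed both thresholds in this fit. E2f2 entered the test only through its WT level, and among the 50 members that reached the filter of 1 TPM in both groups 18 fell and 48 were negative.

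In 44 of 51 members (43 of 50 without E2f2) every KO sample lay below every WT sample, against 29.9% of all genes. After median-of-ratios scaling, which removes the pull of a few abundant RNAs on the TPM total, this held for 45 members (44 without E2f2) against 30.2% of genes. With that scaling 21 members fell, against 10.1% of genes, and with voom 26 fell (25 without E2f2), against 12.2%. At an adjusted p under 0.05 with the same fold threshold, 29 members fell (28 without E2f2), against 16.6% of genes. With a pseudocount of 0.1, 18 members fell, against 8.64% of genes, with a filter of 10 TPM 23 of 41, against 14.1%, and without the 2 most abundant RNAs 23 of 52, against 11.3%. Cdc6, Cdc45, Gins1, Gins2, Prim1, Prim2, Pold3, Pole, Rfc2, Rfc3, Rfc4 and Rfc5 reached the filter of 10 TPM in WT only. The count with that filter therefore favours members that are high in WT, and nothing is concluded from it. The count was smaller with 1 sample left out. It was 8 of 51 (15.7% against 5.6% of all genes) without WT 4, 5 (9.8% against 4.16%) without WT 5 and 13 (25.5% against 5.71%) without WT 8. It was 10 (19.6% against 4.39%) without KO 3, 14 (27.5% against 6.34%) without KO 7 and 10 (19.6% against 5.31%) without KO 10, and no member rose in any of these fits. It was 10 (9 without E2f2) with no variance trend, against 7.76% of genes. When all 26898 genes were tested 1 of 52 members fell (Rfc4), and this share of 1.92% was close to the 1.06% of all genes. Wherever leaving out a sample cost a member its call, the log2 fold change stayed below -0.5 and the adjusted p rose to between 0.00511 and 0.0195. Exons of 16 members overlap a gene on the opposite strand, and strand use in counting is not given in the sources used here. Among the members that fell 7 have such an overlap, which takes 1.6% (Tk1) to 17.4% (Ccne2) of the exon length.

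**Figure D1:**
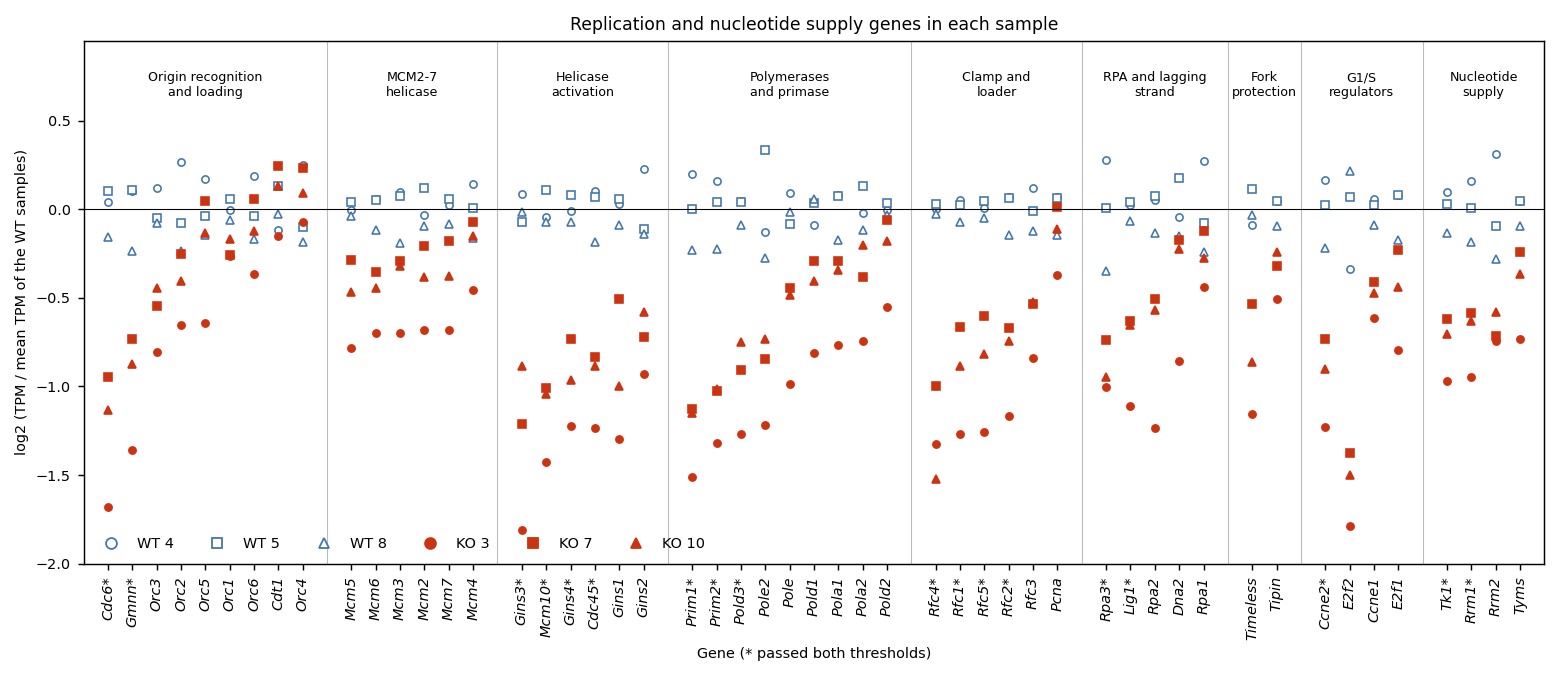
Level of each tested member in each sample, as log2 of its TPM over the mean TPM of the 3 WT samples (y axis), by gene and role group (x axis). Open blue symbols are the WT samples, filled red symbols the KO samples, and an asterisk marks the 18 members that passed both thresholds. In these unscaled TPM KO 3 was the lowest KO sample for 50 of 51 members (41 after median-of-ratios scaling). Orc4 and Cdt1 are the members whose log2 fold change was positive.

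KO 3 stood apart from the other KO samples in unscaled TPM. It had the fewest reads of all samples (17655495). Its median-of-ratios scaling factor was the lowest, at 0.884, against 1.06 in KO 7 and 0.997 in KO 10. The median over members of log2(TPM over the WT mean) was between -0.12 (WT 8) and 0.06 (WT 4) in the WT samples, -0.51 in KO 7, -0.53 in KO 10 and -0.86 in KO 3. KO 3 was the lowest KO sample for 50 of 51 members, and for 41 after median-of-ratios scaling. WT 8 was the lowest WT sample for 45 members, and for 20 after scaling. The share of all genes with this order of samples was not computed, so these counts are not particular to the members. Without KO 3 the median log2 fold change of the members was -0.49, and 49 members were still negative. The median of all genes was then -0.002, beside -0.069 with KO 3 included.

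The G1/S regulators start the programme. Of the 4 members Ccne2 fell, and Ccne1, Ccne2 and E2f1 were lower in every KO sample than in any WT sample. Cyclin E1 (ENSMUSG00000002068.16, chr7:38097984-38107534, minus strand) and cyclin E2 (ENSMUSG00000028212.16, chr4:11191351-11204779, plus strand) activate CDK2 to start S phase. Ccne2 measured 28.8, 26.1 and 22.1 TPM in the WT samples and 10.9, 15.5 and 13.7 TPM in the KO samples, with a log2 fold change of -0.90 ± 0.15 (SE, limma adjusted p = 0.00229). Ccne1 measured 66.5, 64.8 and 60.1 TPM in the WT samples and 41.7, 47.9 and 46.0 TPM in the KO samples, with a log2 fold change of -0.49 ± 0.10 (SE, limma adjusted p = 0.00599). Ccne1 narrowly missed both thresholds. E2F1 and E2F2 are transcription factors that bind the promoters of S-phase genes. E2f1 (ENSMUSG00000027490.17, chr2:154559407-154569892, minus strand) measured 28.4, 28.3 and 23.7 TPM in the WT samples and 15.5, 22.8 and 19.7 TPM in the KO samples, with a log2 fold change of -0.46 ± 0.15 (SE, limma adjusted p = 0.0433). E2f2 (ENSMUSG00000018983.9, chr4:136172394-136196057, plus strand) measured 1.69, 2.24 and 2.48 TPM in the WT samples and 0.620, 0.824 and 0.757 TPM in the KO samples. It reached the filter of 1 TPM in WT only, so its fold change is given without a test. E2f2 was the least expressed of the tested members, with 22 to 115 reads per sample, and its KO mean was 34.3% of the WT mean. The addition of 1 TPM before the log reduces the fold of such a low gene, and its log2 fold change was -0.85 in limma and -1.41 in voom on reads. Ccne2 lost its call without WT 4, WT 5, KO 3 and KO 10 in turn (adjusted p = 0.00524 to 0.00792).

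E2F sites are a known feature of replication gene promoters, so the promoter sequences of the members are shown for that motif. RefSeq windows from 250 bases before to 50 bases after the start site (GRCm38.p6) were found for 42 of the 52 members. Gmnn, Mcm4, Gins1, Gins2, Gins4, Prim2, Pole, Rfc2, Tipin and Ccne2 had no window. The 8-letter E2F words TTTCCCGC, TTTGGCGC, TTTCGCGC and TTTGCCGC were searched on both strands, and overlapping matches can share bases. At least 1 match lay in the windows of 16 of 42 members (38.1%), against 2.6% of the 27025 genes with a RefSeq window and 2.26% of all 32851 windows of 300 bases. A match was present in 4 of 13 members that fell and in 12 of 29 others. The CCAAT box (CCAAT, both strands) was found in 24 of 42 members, against 41.1% of genes, and the word TTTGAA of the cell cycle genes homology region (both strands) in 6 of 42, against 20.2% of genes. A match here describes the letters of the window and not binding.

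Promoter stretches of 6 members follow from 5′ to 3′ along the gene, with the E2F words in capitals, to show how alike the words are in members that differed in their change. Those of Cdc6 (chr11:98908002-98908031, plus strand), Gins3 (chr8:95633507-95633536, plus strand) and Orc1 (chr4:108579416-108579445, plus strand) are 30 bases around the word, because a GENCODE M21 exon overlaps the longer stretch. Those of Mcm5 (chr8:75109316-75109407, plus strand), Mcm6 (chr1:128359706-128359855, minus strand) and Pola1 (chrX:93632246-93632333, minus strand) lie upstream of the annotated genes. The Gins3 and Orc1 sites overlap an annotated exon of their own gene, and the Cdc6 site lies within the annotated gene but outside its exons.
Cdc6: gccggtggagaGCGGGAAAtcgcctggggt
Gins3: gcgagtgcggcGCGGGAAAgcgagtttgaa
Orc1: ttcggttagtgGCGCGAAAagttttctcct
Mcm5: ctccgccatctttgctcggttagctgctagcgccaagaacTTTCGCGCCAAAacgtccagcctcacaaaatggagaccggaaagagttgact
Mcm6: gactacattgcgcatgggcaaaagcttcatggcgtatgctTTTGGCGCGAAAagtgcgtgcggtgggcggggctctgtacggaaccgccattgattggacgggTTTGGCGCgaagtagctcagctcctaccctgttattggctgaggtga
Pola1: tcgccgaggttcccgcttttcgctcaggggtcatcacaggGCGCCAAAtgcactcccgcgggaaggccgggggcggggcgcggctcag
The word begins 138 bases before the start site in both Cdc6 and Pola1, 41 bases in Gins3, 27 in Orc1, 153 in Mcm5 and 110 in Mcm6. Cdc6 (log2 fold change -1.12) and Gins3 (-1.09) fell, whereas Orc1 (-0.20), Pola1 (-0.41), Mcm6 (-0.49) and Mcm5 (-0.50) did not pass both thresholds. Whether such a word goes with the size of the change was not tested.

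Origin recognition and licensing came next, with 2 of 9 members lower, Cdc6 and Gmnn, and a median log2 fold change of -0.20. CDC6 (ENSMUSG00000017499.15, chr11:98907801-98923940, plus strand) is the ATPase that joins ORC to load the helicase. Cdc6 measured 14.6, 15.3 and 12.7 TPM in the WT samples and 4.44, 7.36 and 6.47 TPM in the KO samples, with a log2 fold change of -1.12 ± 0.17 (SE, limma adjusted p = 0.00138). Its KO mean was 42.9% of the WT mean, and it passed both thresholds with any 1 sample left out. Geminin (ENSMUSG00000006715.11, chr13:24751845-24761923, minus strand) binds and inhibits CDT1 outside G1 phase, so that origins are not licensed again. Gmnn measured 29.7, 29.9 and 23.5 TPM in the WT samples and 10.8, 16.7 and 15.1 TPM in the KO samples, with a log2 fold change of -0.93 ± 0.17 (SE, limma adjusted p = 0.00314), and it lost its call without WT 4, WT 5, KO 3 and KO 10 in turn (adjusted p = 0.00517 to 0.00966). CDT1 (ENSMUSG00000006585.3, chr8:122568015-122573554, plus strand) brings MCM2-7 to the origin. Cdt1 measured 23.7, 28.1 and 25.2 TPM in the WT samples and 23.1, 30.4 and 28.1 TPM in the KO samples, with a log2 fold change of 0.08 ± 0.13 (SE, limma adjusted p = 0.693). The groups overlapped, and the 95% confidence interval of the log2 fold change ran from -0.21 to 0.36. Its value was -0.006 without KO 7.

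The 6 ORC subunits mark the origins, and 0 of them were called by limma as fitted above or by voom, with Orc2 and Orc3 lower at an unadjusted p under 0.05 by limma. Orc3 passed both thresholds with a filter of 10 TPM (limma adjusted p = 0.00156) and without the 2 most abundant RNAs (limma adjusted p = 0.00212). Orc3 had the most negative log2 fold change of them at -0.56, with an adjusted p of 0.00878 by limma and all KO samples (10.6 to 13.6 TPM) below all WT samples (17.6 to 20.1 TPM). Orc2 was at -0.41, Orc1 and Orc5 at -0.20 and Orc6 at -0.13. Orc4 was at 0.09, with KO samples of 19.2 to 23.6 TPM among WT samples of 17.7 to 23.9 TPM. For Orc2, 29.8% of the exon length is shared with a gene on the opposite strand.

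All 6 subunits of the MCM2-7 helicase were measured at high levels, and 0 of 6 passed both thresholds in limma, with 5 lower at an unadjusted p under 0.05. Also 0 passed with median-of-ratios scaling and 0 with voom, whereas Mcm5 passed with a filter of 10 TPM (log2 fold change -0.50, limma adjusted p = 0.00196). Their log2 fold changes ran from -0.50 (Mcm5) to -0.22 (Mcm4), with Mcm6 at -0.49, Mcm3 at -0.42, Mcm2 at -0.41 and Mcm7 at -0.40. Mcm4 (ENSMUSG00000022673.5, chr16:15623897-15637400, minus strand) was the most abundant of them. It measured 102, 93.3 and 82.7 TPM in the WT samples and 67.7, 88.1 and 83.6 TPM in the KO samples, with a log2 fold change of -0.22 ± 0.13 (SE, limma adjusted p = 0.234). KO 7 and KO 10 lay within the range of the WT samples. Mcm5, with the largest difference of the ring, had WT samples of 50.9 to 53.8 TPM and KO samples of 30.3 to 42.8 TPM, which did not overlap (limma adjusted p = 0.0176).

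The proteins that turn the loaded ring into a moving helicase contained 4 calls among 6 members, and the median log2 fold change was -0.92. With median-of-ratios scaling and with voom, 6 of 6 passed. CDC45 (ENSMUSG00000000028.15, chr16:18780447-18811987, minus strand) is the helicase cofactor that binds MCM2-7 at the start of S phase. Cdc45 measured 19.8, 19.3 and 16.2 TPM in the WT samples and 7.84, 10.4 and 10.0 TPM in the KO samples, with a log2 fold change of -0.91 ± 0.14 (SE, limma adjusted p = 0.00142). MCM10 (ENSMUSG00000026669.14, chr2:4989714-5012791, minus strand) is needed to activate the assembled helicase. Mcm10 measured 7.51, 8.33 and 7.36 TPM in the WT samples and 2.88, 3.84 and 3.76 TPM in the KO samples, with a log2 fold change of -0.97 ± 0.14 (SE, limma adjusted p = 0.00122). Gins3 (ENSMUSG00000031669.10, chr8:95633453-95645060, plus strand) and Gins4 (ENSMUSG00000031546.6, chr8:23226616-23237659, minus strand) encode subunits of the GINS complex, the other helicase cofactor. Gins3 measured 9.06, 8.12 and 8.45 TPM in the WT samples and 2.44, 3.70 and 4.63 TPM in the KO samples, with a log2 fold change of -1.09 ± 0.18 (SE, limma adjusted p = 0.00233). Gins4 measured 41.8, 44.5 and 40.1 TPM in the WT samples and 18.0, 25.4 and 21.6 TPM in the KO samples, with a log2 fold change of -0.94 ± 0.13 (SE, limma adjusted p = 0.00102). In all of these the KO samples lay well below the WT samples, near 42.0% to 51.4% of the WT mean. Gins1 was at -0.82 (adjusted p = 0.00643 by limma) and Gins2 at -0.67 (adjusted p = 0.00626), both with the KO samples below the WT samples. Gins2 shares 67.3% of its exon length with a gene on the opposite strand. Gins4 kept its call with any 1 sample left out, whereas Mcm10 and Cdc45 each lost it without WT 5 (adjusted p = 0.00585 and 0.00553) and Gins3 lost it without WT 4, WT 5, WT 8 and KO 7 in turn (adjusted p = 0.00545 to 0.00841).

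Of the 9 polymerase and primase members 3 fell, both primase subunits and Pold3. The primase subunits make the RNA primers that start each strand. Prim1 (ENSMUSG00000025395.14, chr10:128015168-128030037, plus strand), the catalytic subunit, measured 19.8, 17.2 and 14.7 TPM in the WT samples and 6.04, 7.87 and 7.76 TPM in the KO samples, with a log2 fold change of -1.15 ± 0.15 (SE, limma adjusted p = 0.000689). Prim2 (ENSMUSG00000026134.11, chr1:33453810-33669795, minus strand), the large subunit, measured 14.7, 13.5 and 11.2 TPM in the WT samples and 5.26, 6.45 and 6.49 TPM in the KO samples, with a log2 fold change of -1.0 ± 0.14 (SE, limma adjusted p = 0.00101). Their KO means were 42.0% and 46.2% of the WT means, and both passed with any 1 sample left out. Pold3 (ENSMUSG00000030726.16, chr7:100082111-100121565, minus strand) encodes an accessory subunit of polymerase delta. It measured 15.9, 15.8 and 14.4 TPM in the WT samples and 6.40, 8.21 and 9.15 TPM in the KO samples, with a log2 fold change of -0.89 ± 0.14 (SE, limma adjusted p = 0.00168), and it lost its call without WT 5 and KO 7 in turn (adjusted p = 0.00524 to 0.00625). The polymerase alpha subunits that bind primase did not pass, with Pola1 at -0.41 (adjusted p = 0.0627 by limma) and Pola2 at -0.39 (adjusted p = 0.0807). Pola1 lies on the X chromosome, and KO 7 was the only sample with a high Xist level. The polymerase delta subunits Pold1, the catalytic subunit, and Pold2 were at -0.48 and -0.26. The polymerase epsilon subunits Pole, the catalytic subunit, and Pole2 were at -0.57 (adjusted p = 0.0191 by limma) and -0.76 (adjusted p = 0.0111). In all 9 the KO samples lay below the WT samples.

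Most subunits of the clamp loader fell, and the clamp itself did not pass both thresholds. Of the 6 members 4 were called, and all 4 were RFC subunits. Rfc4 (ENSMUSG00000022881.15, chr16:23113943-23127737, minus strand) measured 19.3, 19.7 and 19.0 TPM in the WT samples and 7.71, 9.69 and 6.72 TPM in the KO samples, with a log2 fold change of -1.18 ± 0.13 (SE, limma adjusted p = 0.000439). Rfc4 fell in all 14 alternatives, although it reached the filter of 10 TPM in WT only. Rfc1 (ENSMUSG00000029191.16, chr5:65261850-65335670, minus strand), the large subunit, measured 34.9, 34.2 and 32.0 TPM in the WT samples and 14.0, 21.2 and 18.3 TPM in the KO samples, with a log2 fold change of -0.90 ± 0.14 (SE, limma adjusted p = 0.00199). Rfc5 (ENSMUSG00000029363.14, chr5:117378103-117389047, minus strand) measured 16.5, 17.0 and 15.9 TPM in the WT samples and 6.89, 10.8 and 9.33 TPM in the KO samples, with a log2 fold change of -0.82 ± 0.15 (SE, limma adjusted p = 0.00383). Rfc2 (ENSMUSG00000023104.9, chr5:134581366-134601805, plus strand) measured 15.9, 15.8 and 13.7 TPM in the WT samples and 6.74, 9.50 and 9.03 TPM in the KO samples, with a log2 fold change of -0.78 ± 0.14 (SE, limma adjusted p = 0.00342). In each the highest KO sample was below the lowest WT sample. Rfc3, the remaining small subunit, was at -0.58 (adjusted p = 0.00812 by limma), again with the KO samples below the WT samples. PCNA (ENSMUSG00000027342.14, chr2:132249162-132253314, minus strand) is the sliding clamp that holds the polymerases on DNA. Pcna measured 146, 146 and 126 TPM in the WT samples and 108, 140.5 and 129 TPM in the KO samples, with a log2 fold change of -0.15 ± 0.12 (SE, limma adjusted p = 0.38). The KO samples KO 7 and KO 10 lay within the WT range, and the 95% confidence interval of the log2 fold change ran from -0.42 to 0.12. Rfc1 lost its call without WT 4, WT 5 and WT 8 in turn (adjusted p = 0.0052 to 0.00597), Rfc5 without WT 4, WT 5, WT 8, KO 3 and KO 10 in turn (adjusted p = 0.00669 to 0.0124) and Rfc2 with any 1 sample left out (adjusted p = 0.00553 to 0.013).

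Among the single-strand binding and lagging-strand members, 2 of 5 tested fell. Rpa3 (ENSMUSG00000012483.4, chr6:8255936-8259173, minus strand) encodes the smallest subunit of RPA, the complex that coats single-stranded DNA. It measured 38.9, 32.2 and 25.2 TPM in the WT samples and 16.0, 19.3 and 16.7 TPM in the KO samples, with a log2 fold change of -0.84 ± 0.16 (SE, limma adjusted p = 0.00401). DNA ligase 1 (ENSMUSG00000056394.17, chr7:13277283-13311433, plus strand) joins the fragments of the lagging strand. Lig1 measured 30.6, 31.0 and 28.8 TPM in the WT samples and 13.9, 19.5 and 19.2 TPM in the KO samples, with a log2 fold change of -0.76 ± 0.14 (SE, limma adjusted p = 0.00317). Both had the highest KO sample below the lowest WT sample. Rpa3 lost its call without WT 4, WT 5, KO 3, KO 7 and KO 10 in turn (adjusted p = 0.00778 to 0.0195), and Lig1 lost it with any 1 sample left out (adjusted p = 0.00511 to 0.0111). The other RPA subunits were at -0.72 (Rpa2, adjusted p = 0.0142 by limma) and -0.26 (Rpa1, adjusted p = 0.214). Dna2, a nuclease that trims long flaps, was at -0.34 (adjusted p = 0.181 by limma). Fen1, the flap nuclease of Okazaki fragment maturation, was listed at 0.713, 1.22 and 0.610 TPM in the WT samples and 0.568, 0.852 and 1.06 TPM in the KO samples, and the groups overlapped. Its 10 to 26 reads per sample come from a gene that shares 78.8% of its exon length with an opposite-strand gene, so its level is uncertain.

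The fork protection pair Tipin and Timeless, whose proteins bind each other at the fork, contained 0 calls in limma as fitted above, with 2 lower at an unadjusted p under 0.05. Timeless passed both thresholds in limma with median-of-ratios scaling (adjusted p = 0.00376), without the 2 most abundant RNAs (adjusted p = 0.00372) and without KO 7 (adjusted p = 0.00473), and in voom (adjusted p = 0.00123). Tipin (ENSMUSG00000032397.7, chr9:64281581-64305424, plus strand) measured 51.0, 51.1 and 46.3 TPM in the WT samples and 34.9, 39.5 and 41.9 TPM in the KO samples, with a log2 fold change of -0.35 ± 0.11 (SE, limma adjusted p = 0.0363). Timeless was at -0.73 (adjusted p = 0.00682 by limma), with KO samples of 3.93 to 6.06 TPM and WT samples of 8.25 to 9.49 TPM. Both had the KO samples below the WT samples.

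The enzymes of nucleotide supply contained 2 calls among 4. Ribonucleotide reductase makes deoxynucleotides from ribonucleotides and is built of a large subunit, Rrm1 (ENSMUSG00000030978.10, chr7:102441695-102469771, plus strand), and a small subunit, Rrm2 (ENSMUSG00000020649.11, chr12:24708241-24714146, plus strand). Rrm1 measured 74.5, 67.1 and 58.8 TPM in the WT samples and 34.6, 44.5 and 43.1 TPM in the KO samples, with a log2 fold change of -0.70 ± 0.13 (SE, limma adjusted p = 0.00389). Rrm2 measured 247, 187 and 164 TPM in the WT samples and 119, 122 and 133 TPM in the KO samples, with a log2 fold change of -0.65 ± 0.14 (SE, limma adjusted p = 0.00906). Rrm2 was the most abundant member, and WT 4 was higher than the other WT samples. Thymidine kinase 1 (ENSMUSG00000025574.13, chr11:117815526-117826092, minus strand) salvages thymidine. Tk1 measured 24.3, 23.2 and 20.7 TPM in the WT samples and 11.6, 14.8 and 13.9 TPM in the KO samples, with a log2 fold change of -0.72 ± 0.12 (SE, limma adjusted p = 0.00268). Thymidylate synthase (ENSMUSG00000025747.12, chr5:30058202-30073617, minus strand) makes dTMP de novo. Tyms measured 16.1, 16.1 and 14.6 TPM in the WT samples and 9.37, 13.2 and 12.1 TPM in the KO samples, with a log2 fold change of -0.41 ± 0.14 (SE, limma adjusted p = 0.049). In all 4 genes the KO samples were below the WT samples, with KO means of 59.2% (Tk1) to 74.2% (Tyms) of the WT means. Rrm1 lost its call without WT 4, WT 5, KO 3, KO 7 and KO 10 in turn (adjusted p = 0.00734 to 0.0131), and Tk1 lost it without WT 4, WT 5, WT 8, KO 3 and KO 10 in turn (adjusted p = 0.00529 to 0.0109).

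**Figure D2:**
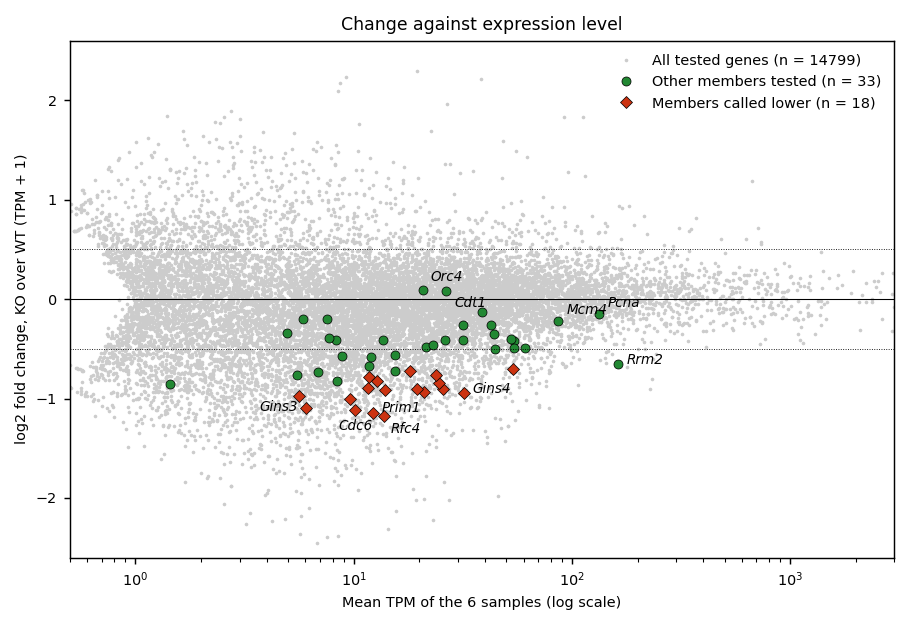
Log2 fold change on the log2(TPM + 1) scale (y axis) against the mean TPM of the 6 samples on a log axis (x axis) for all 14799 tested genes in grey, except 25 outside the axes, with the 18 members that fell as red diamonds and the other 33 tested members as green circles. Dotted lines mark the fold thresholds of -0.5 and 0.5, and the members Mcm4 and Pcna lie between them at high expression.

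The most abundant members were not those with the largest falls. Rfc4, Prim1, Cdc6 and Gins3, at -1.18 to -1.09, had WT means of 19.3, 17.2, 14.2 and 8.55 TPM, and Pcna and Mcm4, at -0.15 and -0.22, had 139 and 92.7 TPM. Rrm2, at 199 TPM in WT, was at -0.65. Summed over the 52 members, the WT samples held 1800 (WT 4), 1690 (WT 5) and 1503 TPM (WT 8), against 998 (KO 3), 1285 (KO 7) and 1215 TPM (KO 10). The sums did not overlap, and their mean log2 difference was -0.52. Cdc6, Gins4, Prim1, Prim2 and Rfc4 fell in the fit as reported and in at least 13 of 14 alternatives, and 23 members fell in none of these fits. The alternatives include the filter of 10 TPM, which Cdc6, Prim1, Prim2 and Rfc4 reached in WT only.

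Ratios between members within a sample show how the balance of partners differed, and they do not depend on the scaling of the sample. The pairs were chosen after the values had been seen, so the ratios are a description. The ratio of Cdt1 to its inhibitor Gmnn was 0.936 ± 0.137 in WT and 1.94 ± 0.177 in KO (SD, n = 3). Cdc6 to Orc1, both parts of the loading machine, was 1.74 ± 0.0975 in WT and 0.874 ± 0.213 in KO (SD, n = 3). The summed TPM of Cdc45 and the 4 GINS genes over that of the 6 MCM2-7 genes was 0.253 ± 0.00349 in WT and 0.172 ± 0.00296 in KO (SD, n = 3). All KO samples were thus on one side of the WT samples in these ratios. The 5 RFC genes over Pcna stood at 0.713 ± 0.0272 in WT and 0.418 ± 0.0172 in KO (SD, n = 3). Prim1 over its partner Pola1 was 1.79 ± 0.138 in WT and 1.04 ± 0.0340 in KO (SD, n = 3). Pold3 over Pold2 was 0.445 ± 0.0167 in WT and 0.273 ± 0.0264 in KO (SD, n = 3). These ratios did not overlap between the groups either. Rpa3 over Rpa1 was 0.689 ± 0.0456 in WT and 0.451 ± 0.0159 in KO (SD, n = 3). Ccne2 over Ccne1 was 0.401 ± 0.0331 in WT and 0.295 ± 0.0308 in KO (SD, n = 3). For ribonucleotide reductase, by contrast, the ratio of Rrm2 to Rrm1 was 2.96 ± 0.308 in WT and 3.08 ± 0.352 in KO (SD, n = 3), and the groups overlapped.

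Further genes of the pathway were read from lists by function, also chosen with earlier results of these data known. Of 37 tested genes of 38 other replication factors, 7 fell (18.9% against 9.03% of all genes) and 0 rose in limma, with 0 higher at an unadjusted p under 0.05 and 0 called higher by voom. The median log2 fold change was -0.45. Clspn (-1.18) and Chtf18 (-1.10) encode a checkpoint mediator and an alternative clamp loader subunit. Ticrr (-1.04) encodes a factor that loads CDC45, and Exo1 (-1.03) a nuclease. Uhrf1 (-0.88), Atad5 (-0.84) and Mcm8 (-0.83) encode a maintenance methylation factor, a PCNA unloader and an MCM-like helicase. With median-of-ratios scaling 11 of the list fell and with voom 14. The voom count holds Dscc1, which reached the filter in WT only (mean 1.88 TPM, against 0.751 TPM in KO). Chtf18 kept its call in 6 of 6 fits with 1 sample left out. Exo1 and Uhrf1 kept it in 5, Ticrr and Clspn in 3, Atad5 in 1 and Mcm8 in 0.

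Of the 32 genes of the wider nucleotide synthesis list 1 fell (3.12% against 9.03% of all genes), Pfas, an enzyme of de novo purine synthesis, at a log2 fold change of -0.89 ± 0.16 (SE, limma adjusted p = 0.00364). Pfas kept its call in 1 of 6 fits with 1 sample left out, and with voom 2 genes of the list fell. At an unadjusted p under 0.05, 10 genes were lower and 1 was higher, without a share of all genes to set beside these counts. No gene of the list rose in limma or in voom, and the number higher at an unadjusted p under 0.05 was 6 with median-of-ratios scaling and 7 with voom. Its median was -0.14, beside -0.069 for all genes and -0.68 for the 4 supply members above.

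Among 25 genes of cell cycle control 5 fell (20% against 9.03% of all genes) and 3 rose (12% against 1.64%). The 3 that rose encode cyclin-dependent kinase inhibitors. Cdkn1a, a target of p53, measured 303, 256 and 241 TPM in the WT samples and 450.3, 488 and 469.6 TPM in the KO samples, with a log2 fold change of 0.82 ± 0.11 (SE, limma adjusted p = 0.000797). Cdkn1c was at 0.89 and Cdkn2b at 0.84. Those that fell were Rbl2 (-1.18), a pocket protein that holds E2F targets silent, Cdkn2d (-1.13), also an inhibitor of cyclin-dependent kinases, Ccna2 (-0.94), the cyclin of S and G2 phase, Tfdp2 (-0.92), a partner of E2F, and Cdk2 (-0.70), the kinase that cyclin E binds. Kinase inhibitors were thus found in both directions. With median-of-ratios scaling 5 genes of the list fell and 4 rose, and with voom 6 fell and 4 rose. Ccnd2 was higher past both thresholds in these 2 settings, at 0.51 and 0.53. Rbl2 and Cdkn2d kept their call in 6 of 6 fits with 1 sample left out, Ccna2 in 5, Tfdp2 in 1 and Cdk2 in 0.

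Of 26 mitotic genes 15 fell (57.7% against 9.03% of all genes), 0 rose in limma or voom, and 26 were lower at an unadjusted p under 0.05. The median was -0.75, beside -0.58 for the replication members. Mki67, a widely used marker of cycling cells, measured 71.6, 61.3 and 52.7 TPM in the WT samples and 25.7, 36.9 and 35.2 TPM in the KO samples, with a log2 fold change of -0.91 ± 0.16 (SE, limma adjusted p = 0.00285). Among the genes of the list that passed both thresholds, Bub1 (-1.23), a spindle checkpoint kinase, had the largest fall. Nuf2 (-1.05) and Ndc80 (-0.93), partners at the kinetochore, and Ccnb2 (-1.02), a mitotic cyclin, came next. Mad2l1 (-0.88), a checkpoint protein, Plk1 (-0.86), a mitotic kinase, and Cenpe (-0.86), a kinetochore motor, fell as well. With median-of-ratios scaling 22 genes of the list fell, and with voom 22. Bub1 and Ccnb2 kept their call in 6 of 6 fits with 1 sample left out. Nuf2 and Plk1 kept it in 5, Ndc80 in 4, Mki67 in 2, and Mad2l1 and Cenpe in 1. Genes used later in the cycle were lower in the same samples, and whether the lists differed was not tested.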

How the data were processed

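RNA sequencing of 3 WT and 3 KO samples was read from 1 table. The authors aligned reads to mm10 with STAR and used DESeq2 for differential expression, the submitters' processing notes also list Bowtie 0.12.2, and the counting program, strand setting and other versions are not given in the sources used here. The authors deposited expression as TPM, with each column summing to 1000000. The table also holds the authors' own log2 fold changes and adjusted p-values, which were not used.

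Following the study's filter, the 14799 genes whose mean reached 1 TPM in WT or in KO were kept. Log2(TPM + 1) values were fitted with limma 3.58.1 (R 4.3.3), with a variance trend and without covariates. A gene was called, as in the study, at an adjusted p under 0.005 with a log2 fold change past 0.5 or -0.5. Because TPM are not counts, neither DESeq2 nor edgeR was used here. Multiplying TPM by the merged exon length (GENCODE M21) and by 1 constant per sample gave whole reads for 100.0% of the values checked, at a tolerance of 0.05. These reads numbered 17655495 to 27718259 per sample, and they were used for depth and for voom. Each group had 3 samples, which limits the precision. On simulated data for the KO against WT comparison (14498 genes, 200 changed), limma recovered 82% of genes at a fold of 0.5, 86% at 0.6, 92% at 1.67 and 98% at 2, with 179 of 180 calls true and 0 calls when no gene was changed. The simulation used the same relative spread for every gene, changed no gene of low expression and changed as many up as down. In the data 1337 genes fell and 242 rose, so these rates are not estimates for the members.

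The members and lists were chosen with earlier results of these data known. All 52 members are named. Values in every sample are given for members that passed and for the nucleotide supply and G1/S members. They are also given for the most abundant member of a group with none passing, and for Cdt1, Pcna and Fen1. Passing genes of other lists are named up to 8 a list by size of change, and Kansl1, Mki67 and Cdkn1a always. Alternatives were a pseudocount of 0.1, no filter, a filter of 10 TPM, median-of-ratios scaling, TPM without the 2 most abundant RNAs, no variance trend, an adjusted p under 0.05, voom, and each sample left out in turn. No p-value is given for the summed member TPM, since the members were chosen with results known.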

Additional observations from a re-analysis of the deposited data

How the results depend on the processing

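No member rose under any of the 14 alternatives. The number of members that fell, 18 of 51, was 18 with a pseudocount of 0.1 (8.64% of all genes fell), 23 of 41 tested with a filter of 10 TPM (14.1% of all genes), 21 with median-of-ratios scaling (10.1%), 23 of 52 without the 2 most abundant RNAs (11.3%) and 26 with voom (12.2%). It was 10 with no variance trend (7.76%), 29 at an adjusted p under 0.05 (16.6%) and 1 of 52 with no filter, where 1.06% of 26898 genes fell. It ran from 5 to 14 with 1 sample left out, where 4.16% to 6.34% of all genes fell. Without E2f2 it was 25 with voom, 9 with no variance trend and 28 at an adjusted p under 0.05. The count with a filter of 10 TPM includes members, Cdc6, Prim1 and Rfc4 among them, that reached that filter in WT only. Nothing is concluded from that count. The median log2 fold change of the members ran from -0.64 to -0.49 and the log2 difference of their summed TPM from -0.59 to -0.41 over the alternatives run. The members that passed in at least 1 alternative but not in the fit as reported were Orc3, Mcm5, Gins1, Gins2, Pole, Pole2, Rfc3, Rpa2, Timeless and Rrm2. E2f2 is left out of this list because it reached the filter in WT only. Among single members, 337 values under alternatives on all 6 samples kept their side of the thresholds, 35 moved past them and 26 no longer passed. With 1 sample left out these numbers were 251, 3 and 51, and 1 value changed sign, that of Cdt1, whose log2 fold change ran from -0.006 (without KO 7) to 0.184 (without KO 3). The cause of these differences was not tested. No paired analysis was possible because no number in the sample titles occurs in both groups. Of the tested members, E2f2 and Gins3 had the fewest reads and rest on as few as 22 and 48 reads in a sample.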
